A study of Drosophila melanogaster with 40 samples.

Results

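The genes described here encode the pioneer factor Zelda and 4 proteins that bind GA repeats or act with those that do: zld, Trl, Clamp, psq and lolal. They are 5 of the 18315 annotated genes and were chosen by name for what their proteins do. The rule used no measured value, although earlier results of these data were known when it was set. A peak was assigned to a gene when it overlapped the gene body or the 2 kb to either side, which is called the window of the gene below. The study used chromatin immunoprecipitation followed by sequencing (ChIP-seq) on hand-selected Drosophila melanogaster embryos of 0.5 to 1.5 h after egg laying. GAF and Zelda were precipitated from M-Z+ dPCIF1 mutant embryos, a label for embryos without maternal dPCIF1 product but with a working zygotic gene, with 2 biological replicates per factor. Wild-type embryos, of the w1118 strain by the methods of the study, were used for GAF, Zelda, dPCIF1, HIRA and RNA Pol II-Ser5P (RNA polymerase II that carries phosphate on serine 5 in the repeats of its tail, a form found near promoters), again with 2 replicates each, which gave 14 peak lists in 7 groups. The labels do not say which dPCIF1 allele the mutant mothers carried (the study made null alleles with CRISPR/Cas9), and the GAF and Zelda samples of a genotype are labelled with a common input. Whole embryos were pooled, so a region bound in fewer nuclei and a region bound more weakly cannot be told apart, and the loss of dPCIF1 or the identity of the tissue could not be checked from lists of peaks.

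Zygotic genome activation is the point at which the embryo starts to transcribe its own genome, and pioneer factors are proteins that bind their sites in closed chromatin and help to open them. Zelda, encoded by zld, is a maternally supplied zinc finger protein that binds CAGGTA-like sequences and is required for early zygotic transcription. GAF (GAGA factor), encoded by Trl, and Pipsqueak, encoded by psq, are BTB/POZ proteins that bind GAGAG elements. CLAMP, encoded by Clamp, is a zinc finger protein that also binds GA repeats and guides the dosage compensation complex to the male X chromosome. Lola-like (Batman), encoded by lolal, is a small protein that consists largely of a BTB/POZ domain and associates with GAF. dPCIF1 is the fly relative of a mammalian cap methyltransferase, and HIRA is a histone chaperone that deposits the histone variant H3.3.

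Stretches directly upstream of a start site are shown for 3 of the member genes because the factors named above were called there and because they differ in how many GA elements they hold. Each is the 300 bases before the start site used by the largest number of annotated transcripts of the gene, written 5′ to 3′ on the strand of the gene, from the Release 6 (dm6) reference genome of RefSeq. Capitals mark GAGAG or its reverse complement CTCTC, and CAGGTA or its reverse complement TACCTG. The zld stretch is chrX:19783549-19783848 (minus strand), the Trl stretch is chr3L:14757963-14758262 (minus strand) and the Clamp stretch is chr2L:22169144-22169443 (minus strand). The Trl stretch lies inside the gene body, in an intron downstream of the start site at position 14761049.
zld upstream: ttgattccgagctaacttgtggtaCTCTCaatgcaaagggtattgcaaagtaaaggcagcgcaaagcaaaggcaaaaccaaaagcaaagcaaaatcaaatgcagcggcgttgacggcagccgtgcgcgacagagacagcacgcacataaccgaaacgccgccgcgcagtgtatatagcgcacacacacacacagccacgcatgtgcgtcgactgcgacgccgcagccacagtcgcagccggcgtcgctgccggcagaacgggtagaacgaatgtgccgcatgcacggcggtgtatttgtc
Trl upstream: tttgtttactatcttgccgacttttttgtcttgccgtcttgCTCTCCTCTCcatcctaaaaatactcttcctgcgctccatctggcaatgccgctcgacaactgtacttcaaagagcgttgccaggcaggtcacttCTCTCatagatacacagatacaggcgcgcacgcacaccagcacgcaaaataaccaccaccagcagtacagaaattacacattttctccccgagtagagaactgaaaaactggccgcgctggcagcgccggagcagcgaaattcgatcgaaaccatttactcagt
Clamp upstream: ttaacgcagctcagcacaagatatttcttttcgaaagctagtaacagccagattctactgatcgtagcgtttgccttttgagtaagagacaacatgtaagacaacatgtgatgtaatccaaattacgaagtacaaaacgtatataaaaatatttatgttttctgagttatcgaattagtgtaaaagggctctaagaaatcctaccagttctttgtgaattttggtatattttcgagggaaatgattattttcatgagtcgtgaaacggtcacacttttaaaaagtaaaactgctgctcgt
The zld stretch held 1 GAGAG, the Trl stretch 3 and the Clamp stretch 0, with overlapping matches on either strand counted separately. None of them held CAGGTA. The GAGAG count depended on the start site taken. Before the other zld start site, at position 19783143, the 300 bases held 8 GAGAG. Before the other Trl start sites they held 0 (14761049), 0 (14757779) and 11 (14757336). Among 23697 such upstream windows of all annotated start sites, 31.6% held at least 1 GAGAG, 7.51% held at least 3 and 6.67% held CAGGTA. A called peak overlapped the zld and the Trl stretch in 14 of 14 lists and the Clamp stretch in 11 of 14. A match is only a description of the letters and is not a measured binding site.

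Introns of zld and Trl held called regions as well, and 3 stretches of 300 bases from them are shown with the same capitals. The first lies in the zld intron at chrX:19773897-19774196 (minus strand) and holds the 1 CAGGTA of the window that lay in Zelda consensus regions of both genotypes. The second, at chrX:19772957-19773256 (minus strand), was chosen after its calls were seen: it lies under the Zelda peaks of both mutant lists and of neither wild-type list. The third is an intronic stretch of Trl, chosen for holding most GAGAG elements within a GAF region of both genotypes, at chr3L:14756340-14756639 (minus strand).
zld intron, CAGGTA: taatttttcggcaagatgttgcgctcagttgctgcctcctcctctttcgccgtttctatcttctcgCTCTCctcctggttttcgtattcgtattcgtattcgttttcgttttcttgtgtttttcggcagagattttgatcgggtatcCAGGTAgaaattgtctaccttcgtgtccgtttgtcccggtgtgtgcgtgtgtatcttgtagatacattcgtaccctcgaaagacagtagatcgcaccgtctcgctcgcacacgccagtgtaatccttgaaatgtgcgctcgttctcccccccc
zld intron, called in mutant lists: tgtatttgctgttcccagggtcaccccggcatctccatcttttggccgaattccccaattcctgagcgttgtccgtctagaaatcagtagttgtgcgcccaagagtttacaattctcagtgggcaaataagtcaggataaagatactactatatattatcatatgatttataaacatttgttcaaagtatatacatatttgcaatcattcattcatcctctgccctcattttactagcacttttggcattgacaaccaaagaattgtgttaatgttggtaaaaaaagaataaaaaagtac
Trl intron, GAGAG: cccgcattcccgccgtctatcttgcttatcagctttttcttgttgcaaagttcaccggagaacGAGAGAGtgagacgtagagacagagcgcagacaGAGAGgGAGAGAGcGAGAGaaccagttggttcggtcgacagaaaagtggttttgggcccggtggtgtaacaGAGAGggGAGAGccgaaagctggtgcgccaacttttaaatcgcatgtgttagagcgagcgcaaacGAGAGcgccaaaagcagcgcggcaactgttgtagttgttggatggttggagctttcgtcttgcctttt
The first stretch held 1 CAGGTA and 1 GAGAG, the second held neither, and the Trl stretch held 9 GAGAG and no CAGGTA. The first stretch lay under a peak in 12 of 14 lists, all but those of dPCIF1, and the second touched a peak in 3 lists, those of Zelda in the mutant and 1 of RNA Pol II-Ser5P. The Trl stretch lay under a peak in 9 of 14 lists and under no Zelda peak.

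Across the members, called peaks of nearly every factor were present. A consensus region, formed where peaks of both replicates overlapped by at least 20% of both lengths, was found in the windows of 5 of 5 genes for GAF in the mutant (27.9% of all annotated genes) and in the wild type (29.7%), for dPCIF1 (23.1%), for HIRA (19.4%) and for RNA Pol II-Ser5P (57.7%). Zelda had a consensus region at 4 of 5 genes in the mutant (15.4% of all genes) and at 4 of 5 in the wild type (14.3%), and Clamp was the member without it. All 7 groups had a consensus region in the windows of 4 of 5 members, against 6.55% of all genes. Long windows hold peaks more easily, so start sites with a fixed 1 kb to either side were counted too. The members have 17 of the 23732 annotated start sites, and 11 of these 17 had a consensus region of all 7 groups (3.96% of all start sites). These counts rest on short dPCIF1 regions. With replicate peaks that overlap by 50% of both lengths, 3 of 5 members and 3 of 17 start sites had all 7 groups, and with peaks of at least 500 bp 1 member and 3 start sites did. The shares of all genes and all start sites were not counted at these stricter settings.

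By factor, 17 of the 17 member start sites had a GAF consensus region within 1 kb in the mutant (22.1% of all start sites) and 17 in the wild type (24.1%). RNA Pol II-Ser5P reached 14 of 17 (50.1%), HIRA 14 (14.1%) and dPCIF1 13 (17.1%). Zelda reached 12 of 17 in the mutant (10.3% of all start sites) and 12 in the wild type (8.94%). GAF was the factor with a consensus region near every annotated start site of the 5 genes, its own gene included. The member start sites are not independent, since the 17 belong to 5 genes and several of them lie closer together than the distance counted. Neighbouring genes also start inside the windows, namely CG12702 at zld, Mgat4a, Tsen34 and CG42507 at Trl, lncRNA:CR44809 at Clamp, CG11883 at psq and CG10914 at lolal, and a peak there cannot be given to the member alone.

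The covered percent, which is the share of the window lying under called peaks, set the members apart. The files hold only the position of each peak, without height, q-value or read count, so sequencing depth is unknown and the covered percent measures how much was called rather than how strongly a factor bound. The lists held 3547 to 11661 peaks and covered 2.15 to 14.6 Mb of the genome. The plot of covered percent by list shows the values of all 14 lists for each gene.

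**Figure D1:**
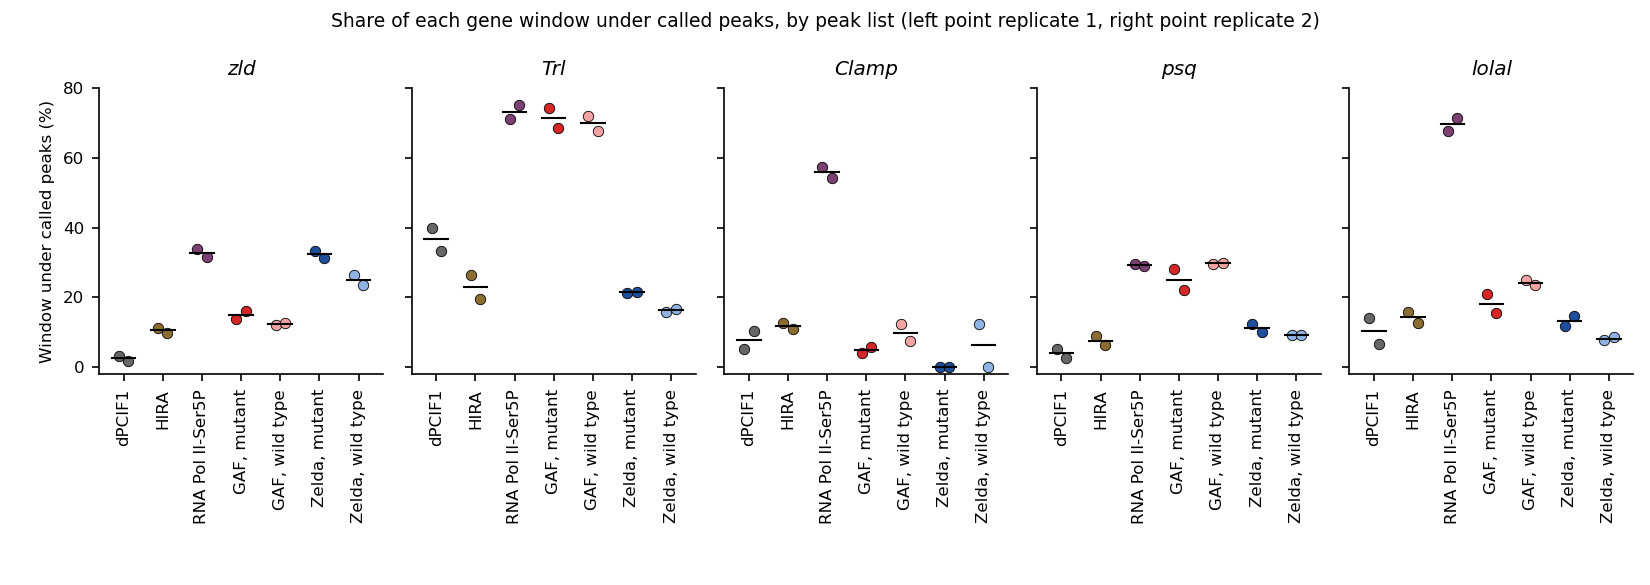
Covered percent of the gene window (vertical axis, % of bases under called peaks) for the 5 member genes in each of the 7 groups (horizontal axis), with 1 point per replicate and a line at the mean of both. RNA Pol II-Ser5P and GAF covered over 67% of the Trl window, and the Zelda points of the mutant lay above those of the wild type in zld, Trl, psq and lolal but at 0 in Clamp.

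zld (FBgn0259789) lies at chrX:19766465-19783548 on the minus strand, with 2 annotated start sites at positions 19783548 and 19783143. dPCIF1 covered 3.31% and 1.80% of its window in replicates 1 and 2, HIRA 11.3% and 9.89%, and RNA Pol II-Ser5P 33.9% and 31.7%. All lists met at the promoter, where a stretch of 328 bp (chrX:19783368-19783695) that contains the upstream start site lay under a peak in 14 of 14 lists. The consensus region of dPCIF1 in this window, 459 bp at chrX:19783316-19783774, was its only one, and it lay entirely under those of HIRA, GAF in the wild type and RNA Pol II-Ser5P. GAF regions at the promoter spanned both start sites, with 1685 bp in the mutant and 1302 bp in the wild type. HIRA spanned both as well (890 bp), as did RNA Pol II-Ser5P (1909 bp). The Zelda region there measured 1609 bp over both start sites in the mutant and 911 bp over the upstream one in the wild type.

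An intron of zld held further consensus regions of every factor but dPCIF1. GAF had 2 separate intronic consensus regions in each genotype, the larger being 1225 bp in the mutant and 840 bp in the wild type. HIRA regions of 556 bp and 884 bp and RNA Pol II-Ser5P regions of 1183 bp and 3648 bp lay at the same places, and dPCIF1 had an intronic peak of 261 bp in replicate 1 only. In the mutant, Zelda gave a single intronic peak of 4195 bp in replicate 1 and of 4171 bp in replicate 2, against peaks of 997 and 2630 bp in wild-type replicate 1 and of 906, 2130 and 287 bp in wild-type replicate 2. The widest RNA Pol II-Ser5P peaks there, 3598 and 3127 bp, were wider than those of Zelda in the wild type. Among peaks of their own lists the Zelda peaks ranked 38th and 31st by width in the mutant, while the widest of each wild-type list ranked 62nd and 103rd. The stretch that joins the peaks in both mutant lists, 324 bp at chrX:19772945-19773268, is free of called Zelda peaks in both wild-type lists and of GAF, dPCIF1 and HIRA peaks in every list, while RNA Pol II-Ser5P covered 4.01% and 1.54% of it. Its middle is the second intronic sequence printed above, which holds no CAGGTA.

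Zelda was also called downstream of its own gene. Near the start site of the neighbouring gene CG12702, a Zelda consensus region measured 871 bp in the mutant and 802 bp in the wild type. A further region of 511 bp (chrX:19765768-19766278) was called in both mutant lists, and wild-type replicate 1 had a peak of 566 bp there. The map of called peaks in the zld and Trl windows shows these regions list by list.

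**Figure D2:**
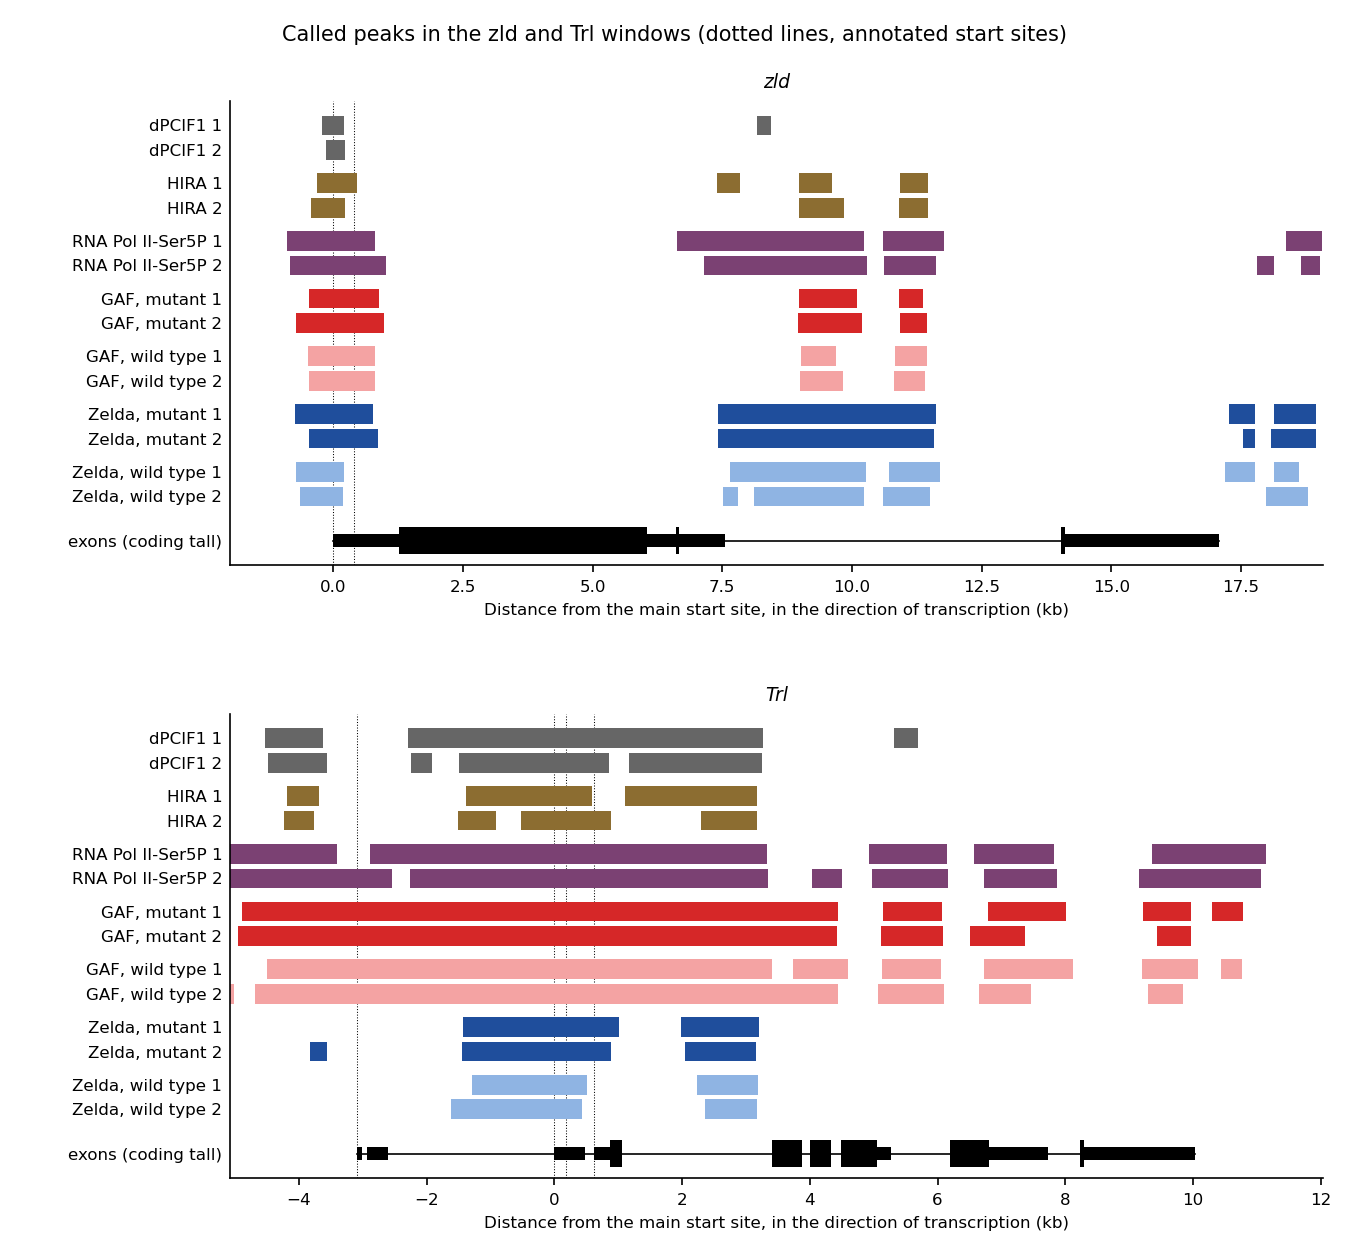
Called peaks of the 14 lists along the zld window (top) and the Trl window (bottom), as distance in kb from the start site with most annotated transcripts, in the direction of transcription. Each bar is 1 called peak in 1 replicate, dotted lines are annotated start sites, and the black track gives exons. In zld the intronic Zelda peaks are joined in both mutant lists and separate in both wild-type lists, and in Trl the GAF peaks run over all 4 start sites.

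Trl (FBgn0013263), at chr3L:14747929-14761049 on the minus strand, had the highest covered percent of the 5 members for GAF, dPCIF1 and HIRA, whereas zld had the highest for Zelda. GAF covered 74.3% and 68.6% of the window of its own gene in the mutant lists, against 71.8% and 67.8% in the wild-type lists, and between 98.7% and 98.9% of all genes had less GAF cover in each of these lists. dPCIF1 covered 40.02% and 33.4%, HIRA 26.5% and 19.6%, and RNA Pol II-Ser5P 71.0% and 75.0%. A single GAF peak ran over all 4 start sites in each list, with 9334 and 9389 bp in the mutant and 7903 and 9131 bp in the wild type. It also covered the starts of the neighbours Tsen34 and Mgat4a and of CG42507, whose start site is the same base as the main start of Trl. In dPCIF1 replicate 1 the Trl peak of 5556 bp was the 6th widest of 4191 in its list, and in replicate 2 the same stretch was split into peaks of 2098, 2355 and 340 bp.

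Within Trl, 3 stretches lay under a peak in all 14 lists. They measured 968 bp around the main start (chr3L:14757524-14758491, with 2 start sites inside), 366 bp upstream of it (chr3L:14758881-14759246) and 801 bp in the intron (chr3L:14754799-14755599). The Zelda regions of Trl lay entirely under GAF consensus regions in both genotypes. They measured 2455 and 1228 bp in the mutant, against 2127 and 947 bp in the wild type. The upstream start site of Trl at position 14761049 had consensus regions of 5 of the 7 groups, all except Zelda in the mutant and Zelda in the wild type, although mutant replicate 2 had a Zelda peak of 264 bp within 1 kb.

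Clamp (FBgn0032979), at chr2L:22165720-22169143 on the minus strand, was the only member without replicated Zelda binding. Zelda covered 0% of its window in both mutant lists, against 12.5% and 0% in the wild-type lists, where the 12.5% comes from a single peak of 931 bp in wild-type replicate 1. All other factors were called over its single start site. GAF peaks there measured 299 and 437 bp in the mutant, against 916 and 565 bp in the wild type. dPCIF1 covered 5.40% and 10.3% of the window, HIRA 12.7% and 11.1%, and RNA Pol II-Ser5P 57.4% and 54.1%. The stretch common to most lists was 87 bp at chr2L:22169077-22169163, which contains the start site and lay under a peak in 11 lists. RNA Pol II-Ser5P had a second region of 2681 bp over the end of the gene, where the body of CG42748 also lies.

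lolal (FBgn0022238), at chr2R:18154095-18158192 on the minus strand, has 5 start sites and a consensus region of every group within 1 kb of each. dPCIF1 covered 14.1% and 6.73% of the window, HIRA 16.0% and 12.6%, and RNA Pol II-Ser5P 67.8% and 71.3%. A stretch of 228 bp (chr2R:18156858-18157085), which contains the start site at position 18156892, lay under a peak in all 14 lists. The GAF region there measured 1707 bp in the mutant and held 3 start sites, against 2100 bp and 5 start sites in the wild type. The Zelda region measured 1189 bp in the mutant and 751 bp in the wild type, with the same single start site inside. The map of called peaks in the Clamp and lolal windows shows both genes.

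**Figure D3:**
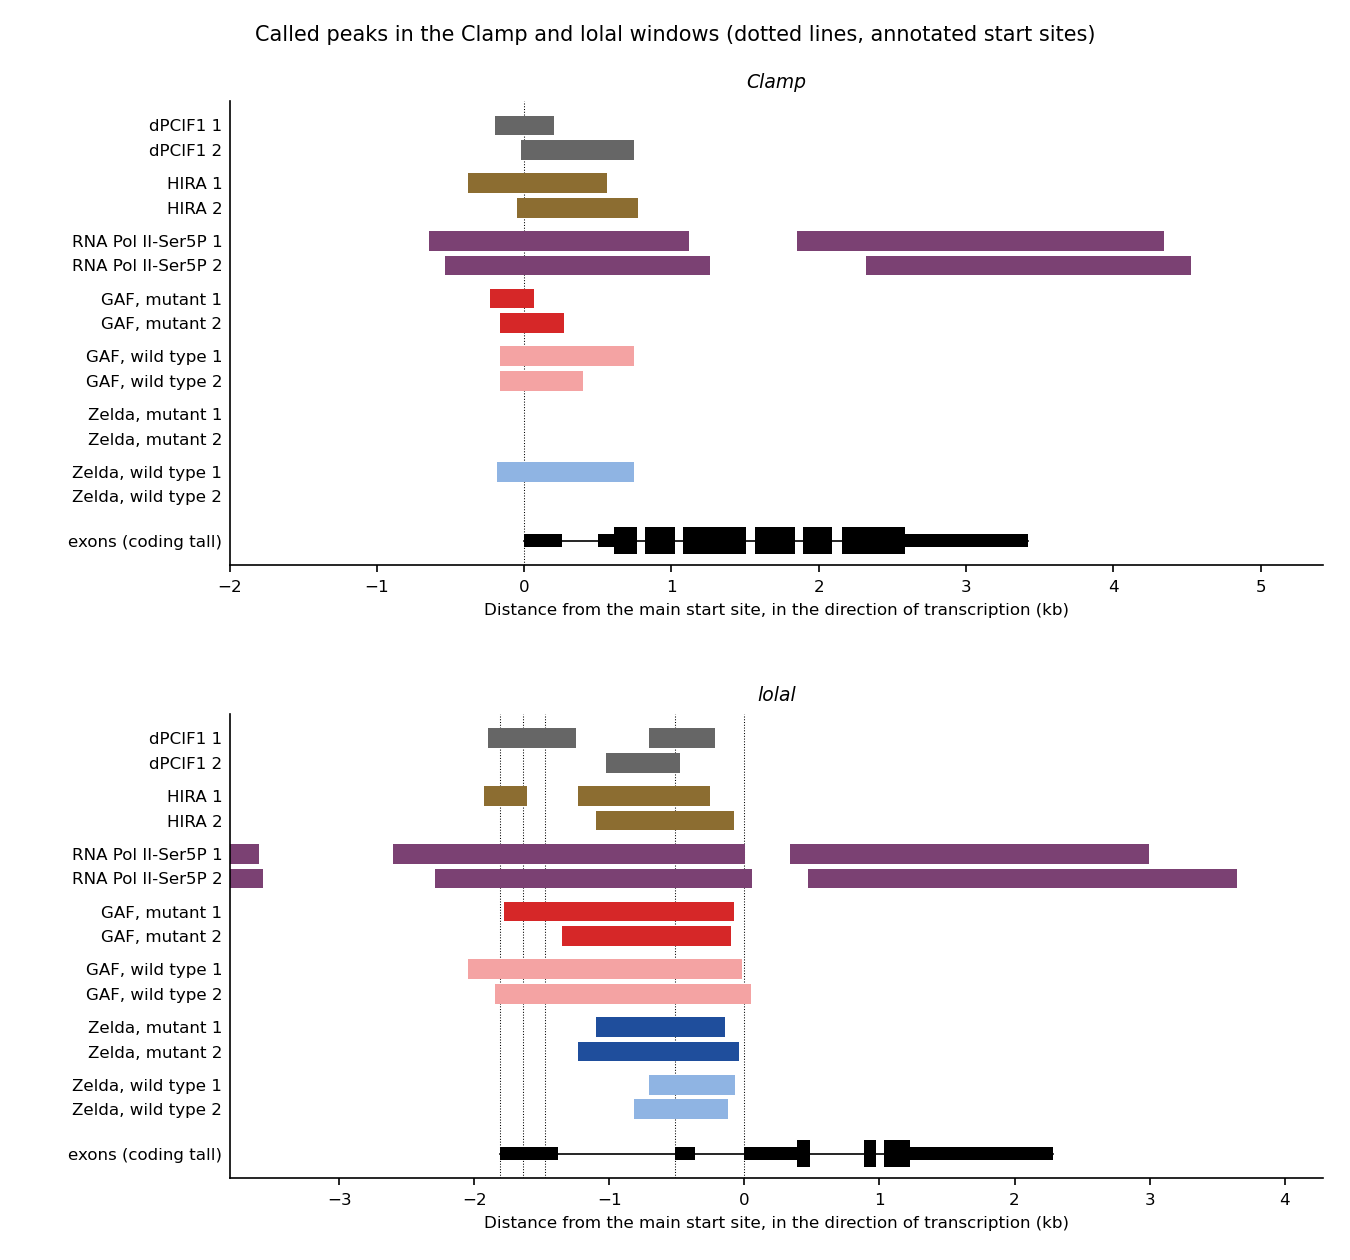
Called peaks of the 14 lists along the Clamp window (top) and the lolal window (bottom), as distance in kb from the start site with most annotated transcripts (the downstream one where several tie), in the direction of transcription, drawn as in the map of zld and Trl. Both mutant Zelda rows are empty at Clamp, and at lolal the mutant GAF peaks are shorter and the mutant Zelda peaks longer than their wild-type counterparts.

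psq (FBgn0263102), at chr2R:10557888-10617280 on the plus strand, is the longest member, and its 5 start sites did not share the same factors. dPCIF1 covered 5.33% and 2.70% of the window, HIRA 8.85% and 6.28%, and RNA Pol II-Ser5P 29.6% and 29.1%. The internal start site at position 10583686 had consensus regions of all 7 groups, and the first start site at 10557888 had those of 6 groups, all but dPCIF1. The start sites at 10568942, 10569222 and 10569954 had GAF consensus regions in both genotypes and no consensus region of any other factor. The GAF region over these 3 start sites measured 2581 bp in the mutant and 4263 bp in the wild type. In the long intron, a stretch of 269 bp (chr2R:10596068-10596336) whose midpoint is 12516 bp from the nearest start site of psq lay under a peak in all 14 lists, as did 327 bp (chr2R:10583110-10583436) just upstream of the internal start.

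Around the first start site, psq was covered by the end of a broad GAF domain that also holds part of lola, a neighbouring gene that encodes another BTB/POZ protein. The union of the 4 GAF lists there spanned 29676 bp (chr2R:10533246-10562921), of which 7034 bp lay in the psq window. GAF peaks covered 99.1% and 92.7% of it in the mutant lists, against 96.6% and 97.1% in the wild-type lists. The single peaks of 29403 bp in mutant replicate 1, 27147 bp in mutant replicate 2 and 27578 bp in wild-type replicate 1 were each the widest of their list. Only mutant replicate 1 covered the domain without a gap between peaks. The widest gap was 584 bp in mutant replicate 2 and 516 bp in wild-type replicate 1. In wild-type replicate 2 the widest gap was 395 bp, and the piece at the first start site of psq measured 9321 bp. RNA Pol II-Ser5P covered 74.7% and 79.3% of the domain, HIRA 31.9% and 30.5%, and dPCIF1 23.8% and 18.7%. Zelda covered 39.5% and 34.0% in the mutant, against 22.3% and 17.9% in the wild type. The domain was chosen after its GAF peaks were seen, and no share over other regions was counted. The mutant Zelda lists also covered more of the genome, with 3.67 and 3.47 Mb against 3.22 and 2.69 Mb. The part of this in the domain values was not tested.

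**Figure D4:**
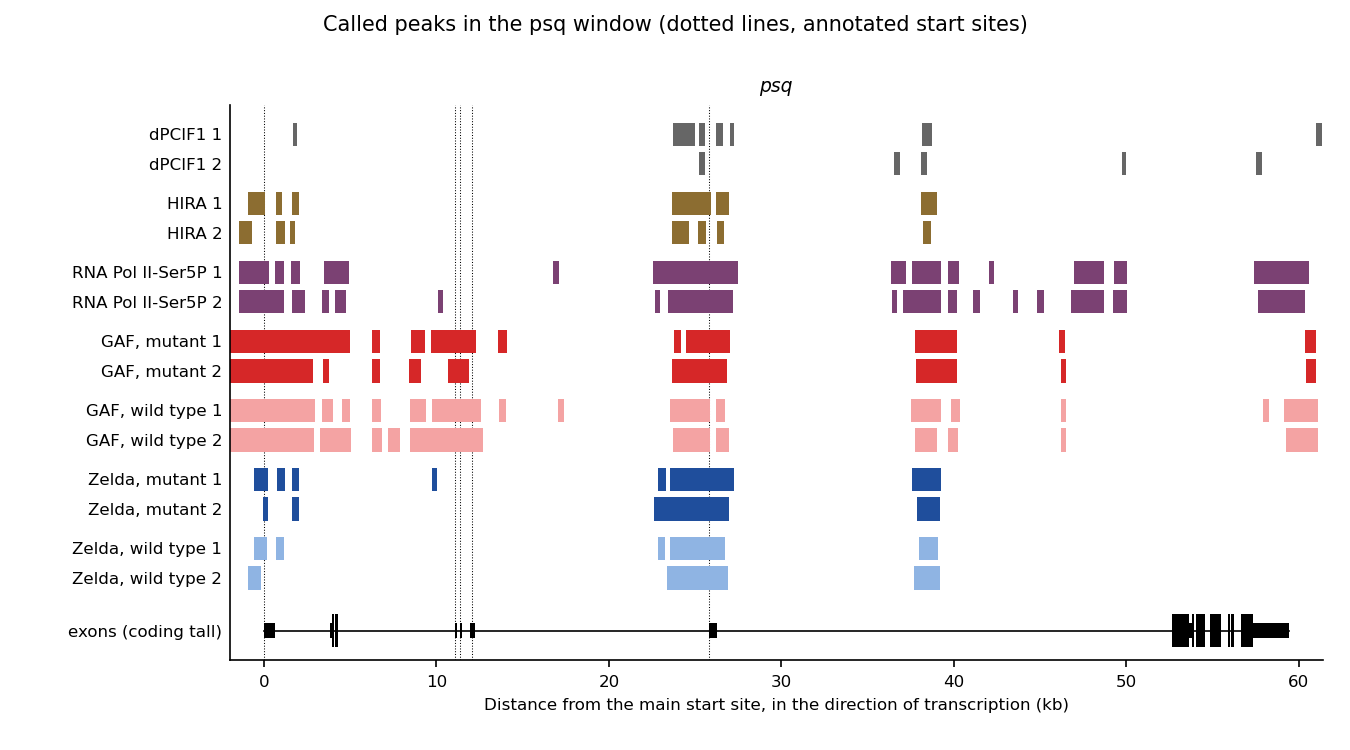
Called peaks of the 14 lists along the psq window, as distance in kb from the first start site in the direction of transcription, drawn as in the map of zld and Trl. GAF peaks at the left edge continue beyond the window, and the next 3 start sites have GAF consensus regions and none of another factor.

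Whether maternal dPCIF1 changes where GAF is called was addressed by comparing the mutant with the wild type. At zld, GAF covered 13.9% and 16.2% of the window in the mutant lists, against 12.2% and 12.8% in the wild-type lists, a difference of 2.56 percentage points between means of 15.1% ± 1.64 and 12.5% ± 0.396 (SD, n = 2 each). At Trl the lists of the genotypes overlapped, with a difference of 1.67 points between means of 71.5% ± 4.05 in the mutant and 69.8% ± 2.87 in the wild type (SD, n = 2 each). Its direction turned to -0.56 points when the gene body alone was used, to -1.19 without mutant replicate 1 and to -0.36 without wild-type replicate 2. At Clamp the values were 4.03% and 5.89% in the mutant and 12.3% and 7.61% in the wild type, a difference of -5.02 points between means of 4.96% ± 1.31 and 9.97% ± 3.34 (SD, n = 2 each). The remaining members also lay lower in the mutant. psq had 28.0% and 22.1% in the mutant, against 29.5% and 29.99% in the wild type, which is -4.67 points between means of 25.1% ± 4.18 and 29.8% ± 0.316 (SD, n = 2 each). lolal had 21.1% and 15.4% in the mutant, against 25.1% and 23.5% in the wild type, which is -6.03 points between means of 18.3% ± 3.999 and 24.3% ± 1.15 (SD, n = 2 each).

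Both mutant GAF lists thus lay below both wild-type lists at 3 of 5 members (28.3% of the 6979 genes with a GAF peak) and above them at 1 of 5 (18.5%). With peaks of at least 500 bp the lists overlapped at zld and psq, and in the gene body only at psq. At Clamp and lolal they stayed apart under both settings. The two-sided exact permutation p was 0.333 at zld, Clamp, psq and lolal, which is the smallest that 2 lists against 2 allow, and 0.667 at Trl. After Benjamini-Hochberg adjustment over all 18315 genes each adjusted p was 1. With 2 lists against 2 the test cannot reach 0.05 for any gene, so it does not decide whether the differences exceed the spread between replicates. The median difference over genes with a GAF peak was -0.37 points. The mutant GAF lists covered 7.58 and 6.51 Mb of the genome, against 7.30 and 7.38 Mb in the wild type. Without the shorter mutant list, replicate 2, the differences were -1.72 points at psq and -3.20 points at lolal. When the GAF peaks of the 4 lists were merged, 22 regions fell in the member windows. Of these, 16 were present in all 4 lists (46.1% of all merged GAF regions), 0 were called in both mutant lists and neither wild-type list (4.64%), and 0 showed the reverse (7.71%). The other 6 were called in some lists of a genotype and not in both, so the differences in covered percent lay in peak widths and in regions without replication.

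For Zelda, the covered percent in the mutant lay above the wild type at every member that carried replicated Zelda binding. At its own gene zld it was 33.3% and 31.4% in the mutant lists, against 26.5% and 23.5% in the wild-type lists, a difference of 7.31 points between means of 32.3% ± 1.35 and 25.0% ± 2.12 (SD, n = 2 each). At Trl it was 21.4% and 21.7% in the mutant, against 16.0% and 16.8% in the wild type, a difference of 5.18 points between means of 21.6% ± 0.190 and 16.4% ± 0.553 (SD, n = 2 each). At both genes the lower mutant list lay above the higher wild-type list. At psq it was 12.5% and 10.2% in the mutant, against 9.25% and 9.22% in the wild type, a difference of 2.07 points between means of 11.3% ± 1.62 and 9.24% ± 0.0245 (SD, n = 2 each). lolal, the smallest of these windows, gave a difference of 4.95 points, with 11.8% and 14.7% in the mutant against 7.87% and 8.67% in the wild type and means of 13.2% ± 2.07 and 8.27% ± 0.568 (SD, n = 2 each). Clamp, with its single wild-type peak, gave -6.27 points.

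Both mutant Zelda lists lay above both wild-type lists at 4 of 5 members (24.1% of the 5260 genes with a Zelda peak) and below them at 0 of 5 (13.9%). The exact permutation p was 0.333 for these 4 genes, again the smallest possible, and 1 for Clamp, and each adjusted p over all genes was 1, with the same limit of the design. With peaks of at least 500 bp the lists of the genotypes overlapped at psq and stayed apart at zld, Trl and lolal. The median difference over genes with a Zelda peak was 0.05 points. The mutant Zelda lists covered more of the genome than the wild-type lists, with 3.67 and 3.47 Mb against 3.22 and 2.69 Mb, and the part of this in the member values was not tested. Of 15 merged Zelda regions in the member windows, 9 were present in all 4 lists (29.0% of all merged Zelda regions), 1 was called in both mutant lists only (7.45%) and 0 in both wild-type lists only (3.67%). The region called in the mutant only was 436 bp in an intron of psq (chr2R:10559504-10559939). HIRA, RNA Pol II-Ser5P and GAF peaks lay over the same place in both of their replicates, GAF in either genotype, and dPCIF1 had a peak there in replicate 1 only. Mutant lists below the wild type for GAF together with mutant lists above it for Zelda were seen at 2 of 5 members, psq and lolal (4.60% of the 3609 genes with peaks of both factors).

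GA elements were concentrated where GAF was called. In zld, GAF consensus regions held 4.63 GAGAG per kb in the mutant, where the rest of the window held 0.96, and 5.77 in the wild type, where the rest held 0.93. The whole genome held 1.57 per kb. Trl held 3.80 per kb in the GAF regions of the mutant and 3.83 in those of the wild type, where the rest held 1.11 and 1.09. In either genotype 48 of its 53 GAGAG lay inside GAF regions, which filled 73.8% of the window in the mutant and 73.2% in the wild type. For psq the densities were 4.25 in the mutant and 3.89 in the wild type, and for lolal they were 2.93 in the mutant and 2.86 in the wild type. In the same order of genotypes, the rest of the window held 1.38 and 1.45 in psq, and 0.78 and 0.67 in lolal. Clamp held 1 of its 6 GAGAG under GAF regions, which is 1.99 per kb in the mutant and 1.09 in the wild type. The density thus stood above the genome in GAF regions of 4 genes in both genotypes, and at Clamp in the mutant regions but not in those of the wild type.

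**Figure D5:**
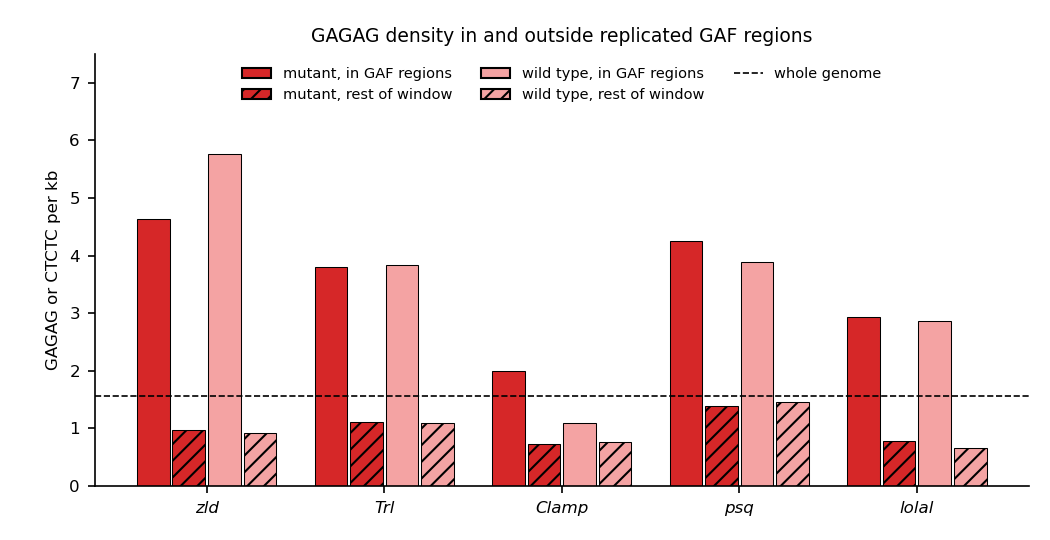
Number of GAGAG or CTCTC per kb (vertical axis) in GAF consensus regions (plain bars) and in the rest of the window (hatched bars) of the 5 member genes, for the mutant (left bars) and the wild type (right bars), with the whole genome at 1.57 per kb as a dashed line. The plain bars lie above the hatched bars in all 5 genes, with the smallest gap at Clamp in the wild type.

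CAGGTA was denser in Zelda regions than outside them in psq in both genotypes and in zld in the mutant. In psq, 9 of 16 CAGGTA lay in Zelda consensus regions of the mutant (1.178 per kb) and 8 of 16 in those of the wild type (1.29 per kb), whereas the genome held 0.25 per kb. In zld itself 3 of 5 lay in mutant regions, at 0.42 per kb inside and 0.14 outside them, and 1 of 5 in wild-type regions, at 0.18 per kb inside and 0.26 outside. The Zelda regions of Trl and lolal held none, in either genotype, of the 1 and 5 CAGGTA in their windows. These counts describe the 6 letters only, and sites that differ from them were not counted.

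In zld, Trl, psq and lolal, dPCIF1 and HIRA regions lay wholly or almost wholly under GAF regions, which also extended beyond them. Clamp differed. Its GAF regions, 916 bp in the wild type and 502 bp in the mutant, were narrower than those of dPCIF1 (944 bp) and HIRA (1155 bp). There the mutant GAF region covered 49.5% of the dPCIF1 region and 43.5% of the HIRA region. The dPCIF1 consensus regions were covered by wild-type GAF regions to 100% in zld, Trl, psq and lolal and to 96.7% in Clamp, and by HIRA regions to between 76.7% (Trl) and 100% (zld, Clamp, lolal). HIRA regions lay under wild-type GAF regions to between 79.3% (Clamp) and 100% (Trl, lolal). The reverse shares varied widely. Wild-type GAF regions were covered by dPCIF1 to 16.5% in zld, 52.2% in Trl, 99.7% in Clamp, 5.24% in psq and 38.3% in lolal, and by HIRA to between 33.1% (psq) and 100% (Clamp). Wild-type Zelda regions lay under wild-type GAF regions to 100% in Trl and lolal and to 90.3% in psq, but to 39.7% in zld, where the broad intronic Zelda regions extended beyond GAF. GAF regions lay under RNA Pol II-Ser5P to 100% in zld, Clamp and lolal in both genotypes, and in Trl to 89.8% in the mutant and 89.3% in the wild type. In psq this share was 59.6% in the mutant and 61.4% in the wild type. RNA Pol II-Ser5P was precipitated from wild-type embryos only.

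Over the 14 lists, the covered percent of Clamp correlated with that of lolal (Pearson r = 0.94) and that of Trl with psq (r = 0.90). For zld and Trl r was -0.02. At Clamp and lolal the RNA Pol II-Ser5P lists stood far above the rest. They covered 57.4% and 54.1% of the Clamp window, where no other list exceeded 12.7%. At lolal they covered 67.8% and 71.3%, where no other list exceeded 25.1%. The r was not computed without these lists. Zelda had a consensus region at lolal and none at Clamp, so this r does not show a shared set of factors. The points are 14 lists, of which the replicates and the groups of a factor share an antibody, and the values are given as a description. Among 4962 genes with a peak in at least 7 lists, those most like zld were lncRNA:CR44719, lncRNA:CR44718 (both r = 0.980) and E(spl)malpha-BFM (r = 0.971). Most like Trl were CG42507, which shares part of its window (r = 0.998), l(3)neo38 (r = 0.995) and Cortactin (r = 0.990). For Clamp they were snRNA:U5:63BC (r = 0.987), CG42724 and CG14968 (both r = 0.981). For psq they were CG30403 (r = 0.986), Alh (r = 0.984) and Usp10 (r = 0.982), and for lolal gro (r = 0.994), eIF4EHP (r = 0.990) and CG11756 (r = 0.989).

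Other genes of the same field were counted in the same way. Over all annotated genes, 6.55% had a consensus region of all 7 groups in their windows and 57.7% had one of RNA Pol II-Ser5P. For GAF the share was 27.9% in the mutant and 29.7% in the wild type, and for Zelda 15.4% and 14.3%. Of 13 other regulators of zygotic genome activation or promoter-binding factors, 4 had a consensus region of all 7 groups in their windows. GAF was found at 7 of 13 in the mutant and 6 in the wild type, and Zelda at 6 in the mutant and 7 in the wild type. Of 10 other BTB/POZ factor genes, 5 had all 7 groups, with GAF at 8 in the mutant and 10 in the wild type and Zelda at 6 in each genotype. Among these 5 was lola, which holds part of the broad GAF domain described at psq. Within 1 kb of a start site, GAF was found at 8 in the mutant and 9 in the wild type. Zelda was found there at 4 in the mutant and 3 in the wild type, and RNA Pol II-Ser5P at 6, against 9 in the windows. The share of all genes was not counted in this way. Of 13 genes for chromatin remodelling and dosage compensation proteins, 1 had all 7 groups. GAF was found at 4 in the mutant and 3 in the wild type, which is near its share of all genes. Zelda was found at 1 in each genotype and RNA Pol II-Ser5P at 13. Among the 5 genes for the precipitated or mutated proteins and for histone H3.3, none had all 7 groups. GAF was found at 1 of these 5 in each genotype, and Zelda at 0 in the mutant and 2 in the wild type.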

How the data were processed

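Peak lists of 14 ChIP-seq samples were analysed. The inputs and the HIRA mutant and nosPmyc HIRA series, 26 of 40 labelled samples, were not used here. The authors trimmed reads with Trimmomatic 0.39, mapped them to dm6 with Bowtie2 2.2.5, filtered them with SAMtools 1.18 and called peaks per replicate with MACS2 2.2.7.1. The deposited lists hold, per the labels and the files, 3 columns (chromosome, start, end), with no signal, score or depth, so intervals for counting error could not be given and a peak just under the caller's threshold is listed like no binding.

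Genes and start sites were taken from the Ensembl 115 annotation of dm6 (transposable elements and unplaced sequences left out), and sequences from the RefSeq Release 6 genome. Windows were gene bodies with 2 kb to either side. Consensus regions joined replicate peaks that overlapped by at least 20% of both lengths. The covered percent of each gene was tested, mutant against wild type, by exact two-sided permutation, adjusted by the Benjamini-Hochberg method over 18315 genes, with Python 3.11.15 and numpy 2.4.6. The code was tested on simulated peaks. The p-values come from relabelling the lists of 2 biological replicates per genotype and do not measure the spread between replicates.

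Named are all 5 genes, regions at their start sites, regions gained or lost, the widest consensus regions, neighbours that start in a window, and the 3 genes most alike by Pearson correlation. Members, companion gene lists and tests were chosen with earlier results of these data known. Alternatives were other overlaps, windows and minimum widths, peaks of either replicate, the replicate block and leaving out each replicate.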

Additional observations from a re-analysis of the deposited data

Results flagged for a closer look

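At psq and lolal the covered percent of GAF and of Zelda differed between the genotypes in opposite directions. In psq, both mutant GAF lists lay below both wild-type lists while both mutant Zelda lists lay above both wild-type lists, and the GAF difference minus the Zelda difference was -6.75 percentage points. In lolal the lists were placed likewise, and the same quantity was -10.98 points. These 2 of 5 members were singled out by this placing of the lists, which fixes the outcome of a permutation test over them, so how far the factors differ was not tested. The same placing was seen at 4.60% of the 3609 genes with peaks of both factors. At psq it was lost for GAF in the gene body only, and for both factors with peaks of at least 500 bp. At lolal it was kept under both settings. The lists also differed in size, with 7.58 and 6.51 Mb under GAF peaks in the mutant against 7.30 and 7.38 Mb in the wild type, and 3.67 and 3.47 Mb under Zelda peaks in the mutant against 3.22 and 2.69 Mb in the wild type, and the part of this in the 2 values was not tested. The GAF and Zelda samples of a genotype are labelled with a common input, so the 2 differences are not independent.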

How the results depend on the processing

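The dPCIF1 counts depended most on how peaks were matched. With an overlap of 50% of both lengths, 3 of 5 members and 4 of 17 start sites kept a dPCIF1 consensus region, and with peaks of at least 500 bp 1 member and 4 start sites did. How many of all genes and start sites kept one at these settings was not counted. For all 7 groups together, alternatives chosen after seeing the data gave 3 of 17 start sites under either setting and 1 member with peaks of at least 500 bp, while leaving out a replicate gave 4 members and 10 to 11 start sites. The counts of the other 6 groups taken singly stayed within 1.5 times under every alternative. Leaving out a replicate moved wild-type Zelda between 4 and 5 members, mutant Zelda between 12 and 13 start sites and RNA Pol II-Ser5P between 14 and 16 start sites. The GAF difference at Trl reversed to -0.56 points in the gene body only, to -1.19 without mutant replicate 1 and to -0.36 without wild-type replicate 2, and ranged over -1.19 to 4.53 when 1 list was left out. The Zelda difference at Clamp was 0 without wild-type replicate 1 and ranged over -12.5 to 0. At the other members the sign was kept in every alternative, but the separation of the lists was not. For GAF at psq the lists of the genotypes overlapped in the gene body only and with peaks of at least 500 bp (exact permutation p 0.667 in both). With peaks of at least 500 bp they also overlapped for Zelda at psq (0.667) and for GAF at zld. At lolal they stayed apart for both factors under these settings (0.333). Leaving out 1 list gave GAF differences of 1.40 to 3.72 at zld, -7.38 to -2.65 at Clamp, -7.63 to -1.72 at psq and -8.85 to -3.20 at lolal. For Zelda the ranges were 5.81 to 8.81 at zld, 4.79 to 5.57 at Trl, 0.93 to 3.22 at psq and 3.49 to 6.42 at lolal. The causes were not tested.

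The labels do not pair replicate numbers between genotypes, and deviations of same-numbered lists correlated at 0.01 for GAF and -0.01 for Zelda. With the replicate block the GAF differences were 2.56 at zld, 1.67 at Trl, -5.02 at Clamp, -4.67 at psq and -6.03 at lolal, the Zelda differences were 7.31, 5.18, -6.27, 2.07 and 4.95 for the genes in that order, and no exact sign-flip p could fall below 0.5. With 2 lists per group and no read counts, an unlisted peak does not show absence of binding.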
